A study of Mus musculus with 6 samples.

Results

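Fibronectin and 9 matricellular protein genes were followed in mouse primary white adipocytes that carried either a miR-182-5p mimic or its control. The genes were Fn1, Postn, Tnc, Tnxb, Thbs1, Thbs2, Thbs3, Thbs4, Sparc and Spp1. They were taken by symbol, 10 of the 22609 genes listed in the count data, by a rule that uses no measured value, though with earlier results of these data known. All 10 had enough reads to be among the 13117 genes tested. With the mimic, tenascin-X (Tnxb) fell to 0.464 times its control level, fibronectin (Fn1) fell by 28.0%, thrombospondin-2 (Thbs2) fell by 29.2% and osteopontin (Spp1) fell by 9.26%. Tenascin-C (Tnc) rose by 34.7%, thrombospondin-1 (Thbs1) by 17.4% and thrombospondin-3 (Thbs3) by 14.5%. Periostin (Postn), SPARC (Sparc) and thrombospondin-4 (Thbs4) did not pass the test.

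Fibronectin is a large glycoprotein that cells secrete as a dimer and assemble, through integrins, into fibrils on which other matrix proteins are laid down. Matricellular proteins are secreted into the matrix too, but serve mainly to adjust how cells attach to it and respond to growth factors rather than to bear load. In fat, the matrix around adipocytes is remodelled as cells differentiate and enlarge, and SPARC, thrombospondin-1, osteopontin and tenascin-C have each been studied there. A microRNA pairs through its seed, the bases near its 5′ end, mostly with 3′-UTRs, and the paired transcript is often broken down or translated less.

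RNA was sequenced from 3 samples with mimic control (labelled CtriWAT1 to CtriWAT3) and 3 with miR-182-5p (miR182iWAT1 to miR182iWAT3). All 6 came from stromal cells of the inguinal fat of male C57BL6 mice, given as 3 weeks old, that were put through adipocyte differentiation in culture, and no sample carried a gene deletion. The labels name electroporation and a control vector, whereas the study's methods name a lipid transfection reagent, a mimic with its control and slightly older mice. Neither says whether the samples were separate cell preparations, so p-values measure only the spread between these samples, which may be technical. The libraries held poly(A) RNA and do not read a mature mimic, and the Mir182 locus had 0 reads in all 6 samples, so the counts give no check of the transfection.

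Reads on genes numbered 25869810 to 26484794 per control sample and 25960631 to 28796712 per mimic sample. Levels are given as CPM (reads per 1000000 reads on genes, after TMM scaling of each library). Adipocyte markers were present at 7336 to 7691 CPM summed over 10 genes in the control samples. Macrophage markers (10 genes) summed to 12.5 to 16.1 CPM in any sample. Csf1r (147 to 216 reads) and Cd68 (118 to 157 reads) made up most of that sum, Lyz2 and Cd14 were counted in all 6 samples, and Ptprc, Itgam and Fcgr1 were each at 0 in at least 1 sample. Endothelial markers (8 genes) summed to no more than 10.03 CPM.

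The sequences below set the microRNA beside the only matches to its seed found in the 3′-UTRs of the 10 genes. The mature miR-182-5p sequence is that of RefSeq (mouse build GRCm38.p6, chr6:30165962-30165986, minus strand), with the seed, bases 2 to 8, in capitals. The sequence that the study's methods print under the same name is a different one, and which of them the cultures received was not tested.

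mmu-miR-182-5p: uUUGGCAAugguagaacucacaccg

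The 3 matches lie in Thbs1 and Thbs2. Capitals mark the bases that would pair with the seed and, in Thbs2, the A opposite base 1. TTGCCAA is the 7-base match to bases 2 to 8, and TTGCCAAA adds the A opposite base 1. Positions are on GRCm38 and each stretch is written along the transcript, from the longest 3′-UTR of each gene in GENCODE M21. The stretch printed for Thbs1, flanking bases included, lies on the plus strand at chr2:118126974-118127000. Those printed for Thbs2 lie on the minus strand at chr17:14666518-14666545 and chr17:14665614-14665641.

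Thbs1, base 1955 of the 3′-UTR: ttttgactctTTGCCAAtacccttttt

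Thbs2, base 978 of the 3′-UTR: aaagctgcttTTGCCAAAtttggtaatg

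Thbs2, base 1882 of the 3′-UTR: ttttttttttTTGCCAAAgattgtaaat

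Thbs2 thus held 2 copies of the 8-base match in a 3′-UTR of 2013 bases, and Thbs1 a single 7-base match in 2104 bases. The 3′-UTRs of Fn1, Postn, Tnc, Tnxb, Thbs3, Thbs4, Sparc and Spp1 held neither TTGCCAA nor TGCCAAA, the match to bases 2 to 7 with the A opposite base 1, which overlaps the 8-base match. TTGCCAA was found in 1566 of 12501 tested genes with a 3′-UTR (12.5%), TTGCCAAA in 656 (5.25%) and TGCCAAA in 1785 (14.3%). Most of the 10 genes have short 3′-UTRs, with a median of 670 bases against 1202 over all, and a short 3′-UTR holds fewer matches of any kind. Of genes whose 3′-UTR is about as long as that of Tnxb (188 bases), 1.71% held TTGCCAA, and of those about as long as Thbs2, 15.6%. A match is a string of letters in this window and says nothing of binding.

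**Figure D1:**
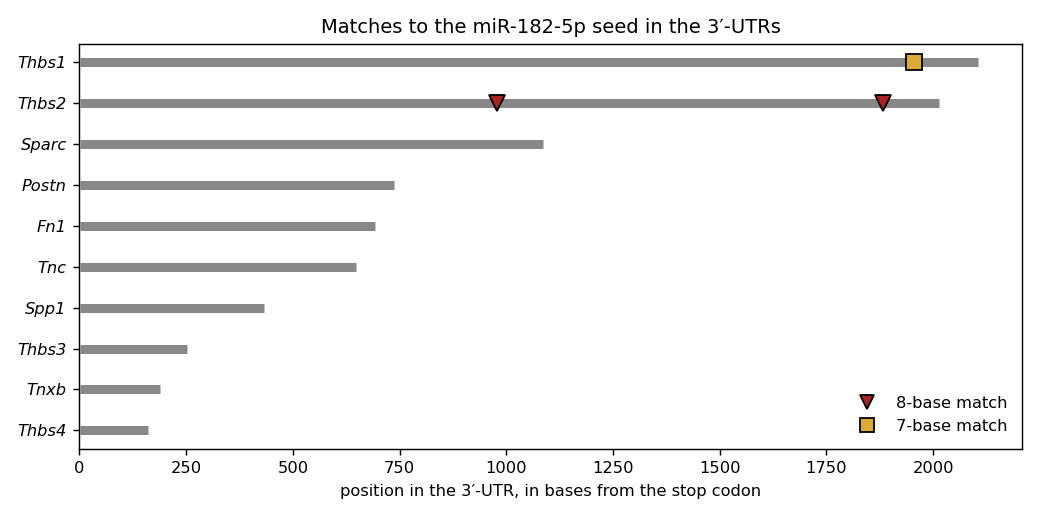
Grey bars show the longest 3′-UTR of each of the 10 genes, drawn to scale in bases from the stop codon, with the 8-base matches to the miR-182-5p seed as triangles and the 7-base match as a square. The 2 triangles are in Thbs2 and the square near the end of Thbs1, while the other 8 genes, with 3′-UTRs of 161 to 1085 bases, carry none.

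The direction of the thrombospondins differed between these 2 genes: Thbs2, with both 8-base matches, fell, and Thbs1, with the 7-base match, rose. Tnxb, which fell most, had no match. Over all genes the median log2 fold change was -0.069 for the 1566 with TTGCCAA and 0.007 for the 10935 without it. The value for Thbs2, -0.50, lay below both medians, and its link to the matches was not tested.

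The 10 genes spanned from the most abundant messages of these cells to near the limit of detection. Divided by the length of the longest coding transcript, the control level was highest for Sparc (4092 ± 18.9 CPM per kb, SD, n = 3), the gene of a collagen-binding glycoprotein. Fn1 followed at 1881 ± 53.4, Postn at 1219 ± 23.9, Thbs1 at 810.7 ± 18.0 and Thbs2 at 287.1 ± 3.26 CPM per kb. Each of these stood apart from its neighbour in this order by more than the spread between samples. Tnc (78.7 ± 3.999 CPM per kb) and Spp1 (74.6 ± 3.02) overlapped in the control samples, as did Thbs3 (13.4 ± 0.429) and Tnxb (13.0 ± 0.315). Thbs4 was lowest at 0.242 ± 0.036 CPM per kb. With the mimic both close pairs came apart, Tnc to 105.9 ± 4.78 against 67.7 ± 2.30 for Spp1 and Thbs3 to 15.3 ± 0.594 against 6.02 ± 0.235 CPM per kb for Tnxb. The order depends on the length used. Over all annotated exon bases of a gene, Thbs1 (780.7 CPM per kb) came before Postn (449.1) and Tnxb (13.0) before Thbs3 (8.83) in the control samples.

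In CPM, without length, Fn1 was the fourth most highly counted gene of the control samples and the fifth with the mimic, and Sparc the sixth in both. Together the 10 genes took 3.53% to 3.62% of the reads on genes in the control samples and 3.26% to 3.28% with the mimic. Their summed level was 35798 to 36747 CPM in the control samples and 32114 to 32544 CPM with the mimic, a smaller total in every mimic sample.

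**Figure D2:**
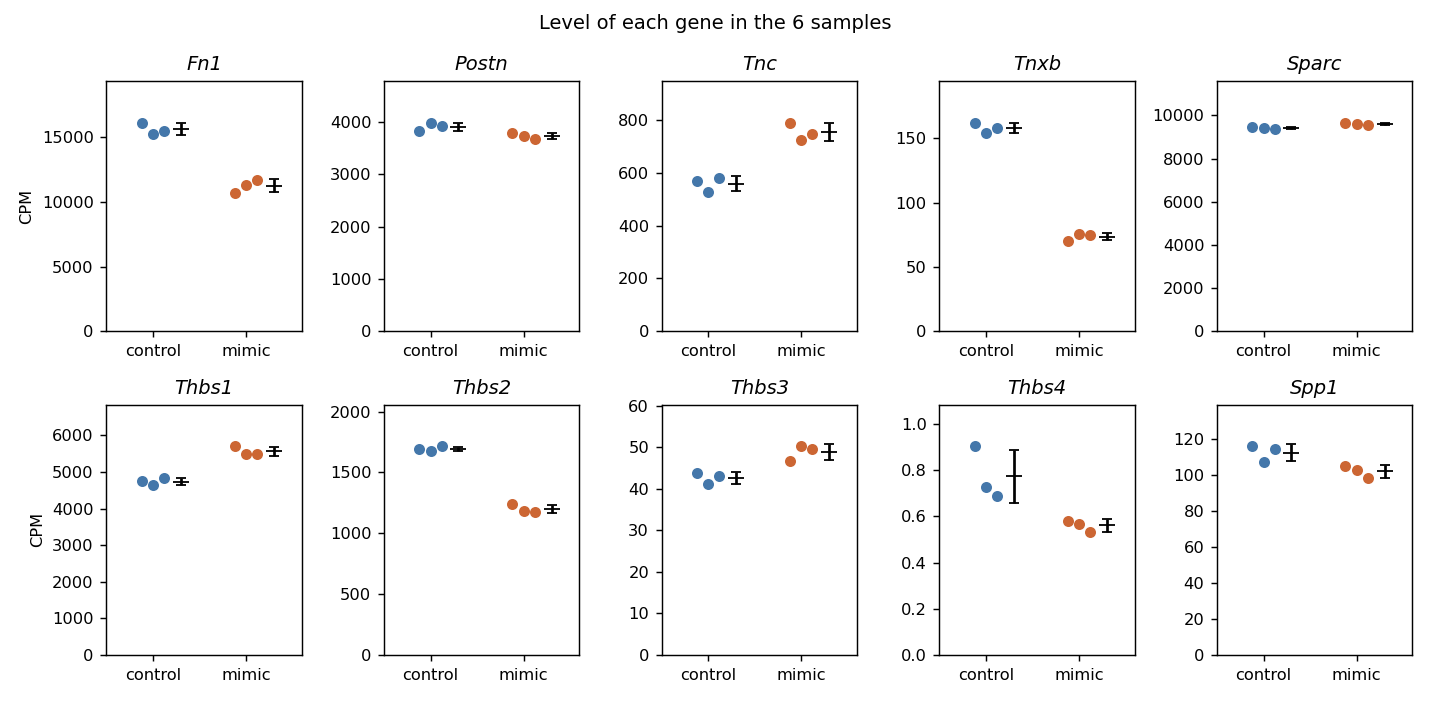
CPM of each gene in the 3 control samples (blue) and the 3 mimic samples (orange), with the mean and SD (n = 3) beside the points, each panel on its own axis from 0. The groups do not overlap in any panel, which was also so for 54.8% of all genes tested. Relative to its level the gap is widest for Tnxb, at 154.5 to 162.2 CPM in control and 70.2 to 75.3 CPM with the mimic.

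The fall of Fn1 alone was larger than that of the sum. Fn1 stood at 16132, 15267 and 15527 CPM in the control samples and at 10728, 11340 and 11710 CPM with the mimic. The lowest control sample was thus well above the highest mimic sample. The mean fell from 15642 ± 443.8 to 11259 ± 496.2 CPM (SD, n = 3), a log2 fold change of -0.47 (SE 0.042, adjusted p = 6.41e-07, from the quasi-likelihood test of edgeR, adjusted by Benjamini-Hochberg across all 13117 genes, as is every adjusted p here). Its share of all reads on genes went from 1.54% to 1.14%. Of the 11685 exon bases of Fn1, 292 overlap Apol7d on the opposite strand. The count does not tell apart the splice forms of fibronectin, including those with the extra domains typical of tissue matrix. Fewer cells of a type and less RNA per cell cannot be told apart in these bulk samples, for Fn1 or for any gene below.

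The tenascins moved in opposite directions. Tenascin-C is an adhesion-modulating hexamer expressed where tissue is remodelled, and tenascin-X is a large glycoprotein of loose connective tissue that binds fibrillar collagen and whose loss in people causes a form of Ehlers-Danlos syndrome. Tnc stood at 568.6, 526.9 and 581.2 CPM in the control samples and at 789.5, 722.5 and 746.3 CPM with the mimic. Every mimic sample was above every control sample, with the replicates of a group close together. The mean rose from 558.9 ± 28.5 to 752.8 ± 34.0 CPM, a log2 fold change of 0.43 (SE 0.040, adjusted p = 9.75e-07). Of the 7772 exon bases of Tnc, 176 overlap 8030451A03Rik on the opposite strand.

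Tnxb stood at 162.2, 154.5 and 158.4 CPM in the control samples and at 70.2, 75.3 and 75.1 CPM with the mimic. The highest mimic sample was below the lowest control sample by more than the whole range of either group. The mean fell from 158.4 ± 3.88 to 73.5 ± 2.87 CPM, a log2 fold change of -1.11 (SE 0.035, 95% interval -1.18 to -1.03, adjusted p = 1.32e-11). It ranked 24 of 13117 genes by p, where Fn1 ranked 535. Among genes ordered by CPM, Tnxb moved from place 1128 in the control samples to place 2921 with the mimic. The Tnxb locus neighbours duplicated genes, and 3 of its 12209 exon bases overlap the pseudogene Cyp21a2-ps on the opposite strand.

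The 4 thrombospondins measured here fall into 2 structural kinds. Thrombospondin-1 and -2 are trimers that share the type 1 repeats by which they act on angiogenesis through CD36 and, for thrombospondin-1, activate latent TGF-β. Thrombospondin-3 and -4 are pentamers that lack those repeats. The split by direction did not follow that division: within the trimeric pair one gene rose and the other fell.

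Thbs1 stood at 4749, 4632 and 4842 CPM in the control samples and at 5700, 5503 and 5494 CPM with the mimic. The mimic samples were all higher, by more than the spread within a group. The mean rose from 4741 ± 106 to 5566 ± 117 CPM, a log2 fold change of 0.23 (SE 0.034, adjusted p = 7.55e-05). Thbs1 shares 208 exon bases with the non-coding Gm29233 on the opposite strand.

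Thbs2 stood at 1689, 1675 and 1713 CPM in the control samples and at 1236, 1185 and 1174 CPM with the mimic. The replicates were tight and the groups far apart. The mean fell from 1692 ± 19.2 to 1199 ± 33.2 CPM, a log2 fold change of -0.50 (SE 0.031, adjusted p = 1.47e-08).

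Thbs3 stood at 43.7, 41.1 and 43.0 CPM in the control samples and at 46.6, 50.2 and 49.5 CPM with the mimic. The groups were separate but close. The mean rose from 42.6 ± 1.37 to 48.8 ± 1.89 CPM, a log2 fold change of 0.20 (SE 0.046, adjusted p = 0.00303). Of the 4823 exon bases of Thbs3, 318 are shared with Mtx1 on the opposite strand, and whether the reads were counted by strand is not given in the sources used here.

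Thbs4 was barely detected, with 23, 19 and 18 reads in the control samples and 17, 15 and 15 with the mimic. At this depth the difference could not be resolved: the log2 fold change was -0.46 (SE 0.257, adjusted p = 0.166), with a 95% interval from -1.01 to 0.09 that holds both no change and a fall as deep as that of Fn1.

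Postn, Sparc and Spp1 encode secreted proteins that bind collagen, in the case of periostin and SPARC, or integrins and CD44, in the case of osteopontin. Periostin takes part in collagen fibril formation, and SPARC is known in fat as an inhibitor of adipocyte differentiation. Postn stood at 3830, 3983 and 3912 CPM in the control samples and at 3778, 3736 and 3663 CPM with the mimic, so that the mimic samples were lower by little. The log2 fold change was -0.07 (SE 0.032, adjusted p = 0.0965), with a 95% interval from -0.139 to 0.001. This call depended on the tool: adjusted p was 0.0427 with DESeq2 and 0.0248 with limma-voom, and 0.0269 in edgeR without the first mimic sample.

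Sparc stood at 9457, 9411 and 9370 CPM in the control samples and at 9660, 9596 and 9533 CPM with the mimic. The groups were separate by a narrow margin. The log2 fold change was 0.03 (SE 0.034, adjusted p = 0.532), and its 95% interval, -0.045 to 0.101, lay below the 0.20 of Thbs3, the least of the 3 rises.

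Spp1 stood at 115.9, 107.3 and 114.2 CPM in the control samples and at 105.1, 102.7 and 98.3 CPM with the mimic. The lowest control and the highest mimic sample were nearly level. The mean fell from 112.4 ± 4.55 to 102.0 ± 3.47 CPM, a log2 fold change of -0.14 (SE 0.037, adjusted p = 0.00628). Osteopontin is also made by macrophages of obese fat, and the part of macrophages in the Spp1 reads was not tested. In GENCODE M21 a same-strand model, Gm42793, covers 309 of the 1648 exon bases of Spp1. Reads there could be left out of its count if the annotation used for counting holds that model.

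A gene was called changed if it passed both cutoffs that the study names, a fold of at least 1.5 and an adjusted p under 0.05. By that rule 1 of the 10 genes was called, Tnxb, which is lower, against 7.45% of all genes tested (1.97% called higher and 5.48% lower). By adjusted p alone 7 of the 10 passed, 3 higher and 4 lower, against 46.7% of all genes (23.2% higher and 23.5% lower). In all 10 the groups did not overlap, with 4 higher and 6 lower in the mimic, against 54.8% of all genes. The share called at both cutoffs was thus near that of all genes, and the shares by adjusted p and by separation were above it. Fn1, Sparc, Thbs1 and Postn were among the 20 genes with most reads in the control samples, where counting error is small, and the part of depth in those 2 shares was not tested. The median log2 fold change of the 10 genes was -0.105, against -0.004 over all genes.

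**Figure D3:**
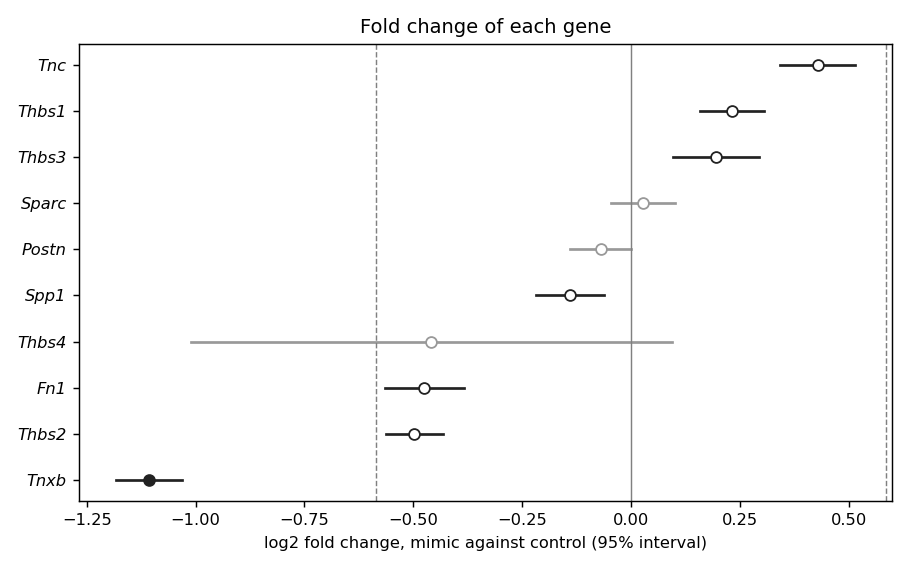
Log2 fold change of each gene, mimic against control, with its 95% interval, solid lines at 0 and dashed lines at the 1.5-fold cutoff (0.585). The filled point is Tnxb, the gene past both cutoffs, black open points passed adjusted p alone (Tnc, Thbs1, Thbs3, Spp1, Fn1, Thbs2), and grey ones did not pass.

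Ratios of reads within 1 sample do not depend on how libraries are scaled. Thbs1 over Thbs2 was 2.81, 2.77 and 2.83 in the control samples and 4.61, 4.64 and 4.68 with the mimic, so that the balance of the trimeric pair moved by 1.66 times with almost no spread. Tnc over Tnxb was 3.51, 3.41 and 3.67 in the control samples and 11.2, 9.60 and 9.94 with the mimic, 2.91 times as high. Fn1 over Sparc was 1.71, 1.62 and 1.66 in the control samples and 1.11, 1.18 and 1.23 with the mimic, 0.706 times as high. The groups were separate in all 3 ratios. An exact permutation test of each (two-sided, n = 3 against 3) gave p = 0.1, which is the smallest that this design allows. The pairs were chosen with earlier results known, so the values are a description.

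**Figure D4:**
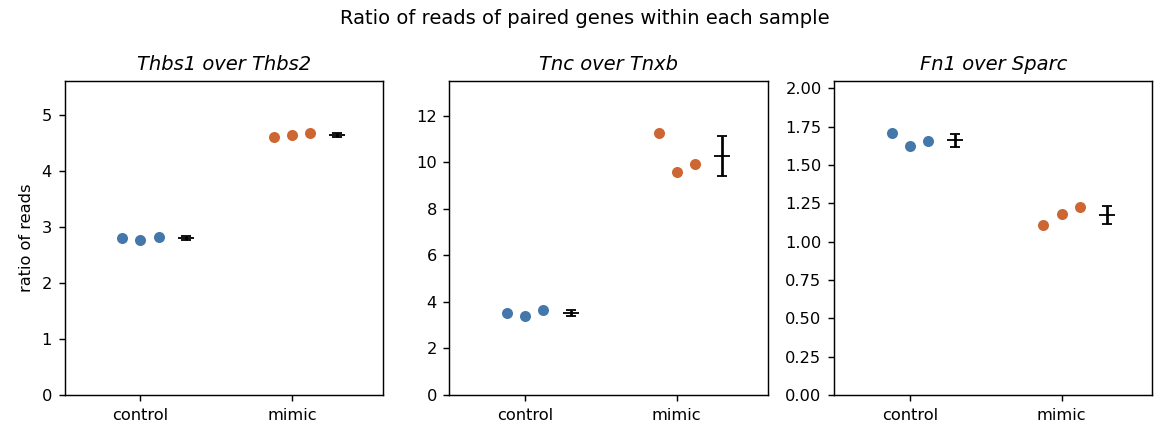
Reads of one gene over reads of another within each control (blue) and mimic (orange) sample, with the mean and SD (n = 3), on axes from 0. Thbs1 over Thbs2 went from 2.80 ± 0.032 to 4.64 ± 0.034, Tnc over Tnxb from 3.53 ± 0.131 to 10.3 ± 0.869 and Fn1 over Sparc from 1.66 ± 0.042 to 1.17 ± 0.059.

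The cell surface receptors of these proteins were followed as a list of 19 genes, 18 of them tested. By adjusted p 8 were higher and 5 lower with the mimic, and 5 passed in neither direction, with a median log2 fold change of 0.109. Over all genes tested 23.2% were higher and 23.5% lower by adjusted p and 7.45% were called, the background for this list and those below. At both cutoffs 1 was called in each direction. Itgb3, the β3 chain that pairs with αv in a receptor for osteopontin, fibronectin and thrombospondin, fell from 17.6 ± 0.903 to 6.71 ± 0.557 CPM (log2 fold change -1.39, SE 0.079, adjusted p = 6.53e-09). Itga4, the α4 chain, which binds a spliced segment of fibronectin, had only 16, 23 and 22 reads in the control samples and 41, 27 and 33 with the mimic (log2 fold change 0.61, SE 0.233, adjusted p = 0.0432). That call was lost in 8 of 14 alternatives, with adjusted p from 0.0369 to 0.160.

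The integrin that fibronectin uses to assemble fibrils, α5β1, is given here although its genes passed adjusted p without reaching 1.5-fold and were chosen after their values were seen. Itga5 rose from 465.6 ± 23.5 to 624.3 ± 30.7 CPM (log2 fold change 0.42, adjusted p = 1.33e-06). Itgb1 rose from 1028 ± 30.8 to 1340 ± 53.0 CPM (0.38, adjusted p = 8.20e-07). Itgav, the gene of the αv chain, is not part of α5β1 and was chosen in the same way. It rose from 194.4 ± 1.52 to 235.3 ± 2.35 CPM (0.28, adjusted p = 1.25e-06). These receptor chains were among the 8 of the list that were higher by adjusted p in the samples in which Fn1 was lower. Itgb3 was among the 5 that were lower there.

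Of 13 proteases and crosslinkers that act on these proteins, 11 were tested, and 2 were higher and 6 lower by adjusted p, with a median of -0.136. The 2 higher were Loxl2, a lysyl oxidase (log2 fold change 0.26, adjusted p = 9.72e-06), and Furin, a proprotein convertase (0.10, adjusted p = 0.0318), neither of them at 1.5-fold, and both were named after their values were seen. That count was 1 without sample 2 or sample 3 of either group and with upper-quartile factors. The 3 called lower were proteases. Mmp2, gelatinase A, went from 711.1 ± 14.8 to 399.9 ± 10.7 CPM (-0.83, adjusted p = 5.11e-11), and Mmp3, stromelysin-1, from 30.6 ± 1.38 to 14.1 ± 2.51 CPM (-1.12, adjusted p = 3.17e-07). Fap, a serine protease of activated fibroblasts, went from 7.88 ± 0.380 to 4.33 ± 0.688 CPM (-0.86, adjusted p = 3.00e-05).

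A list of 23 other matricellular and linked matrix genes, 20 of them tested, had 5 higher and 7 lower by adjusted p and a median of -0.079. The 3 called lower were Tgfbi, Fbln7 and Smoc1. Tgfbi, a paralog of periostin built from the same fasciclin domains, fell from 39.5 ± 1.67 to 9.94 ± 1.01 CPM (log2 fold change -1.99, SE 0.069, adjusted p = 3.20e-11), whereas Postn itself did not pass. Fbln7, a short fibulin, fell by 1.18 on the log2 scale (adjusted p = 2.91e-07) and Smoc1, a SPARC-related calcium-binding protein, by 0.62 (adjusted p = 2.53e-07). Without the first mimic sample Smoc1 fell by 0.55, under the 1.5-fold cutoff. Tnn, the gene of tenascin-W, was called higher (log2 fold change 1.12, SE 0.348, adjusted p = 0.0168) from only 9, 12 and 4 reads in the control samples against 19, 18 and 22. Its adjusted p was 0.0806 without the third control sample, 0.0525 without the third mimic sample and 0.0592 with DESeq2.

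TGF-β is a main inducer of fibronectin, periostin and tenascin-C and is itself held in the matrix by latent binding proteins. Of 12 genes of its ligands, latent binding proteins and receptors, 11 were found and tested (Nrros was not found under that symbol), and 2 were higher and 6 lower by adjusted p, with a median of -0.17. The 2 higher were Ltbp1 (log2 fold change 0.41, adjusted p = 3.92e-05) and Ltbp3 (0.16, adjusted p = 0.000414), both latent binding proteins. A further one, Ltbp4, was lower (-0.41, adjusted p = 2.73e-05). None of these latent binding protein genes reached 1.5-fold, and all were named after their values were seen. The 2 called were both lower. Ltbp2, a fibrillin-binding member of the latent TGF-β binding family, fell from 343.9 ± 18.3 to 146.2 ± 7.06 CPM (-1.23, adjusted p = 2.58e-11). Tgfbr3, betaglycan, the co-receptor, fell from 349.0 ± 7.52 to 152.8 ± 2.16 CPM (-1.19, adjusted p = 1.60e-12).

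**Figure D5:**
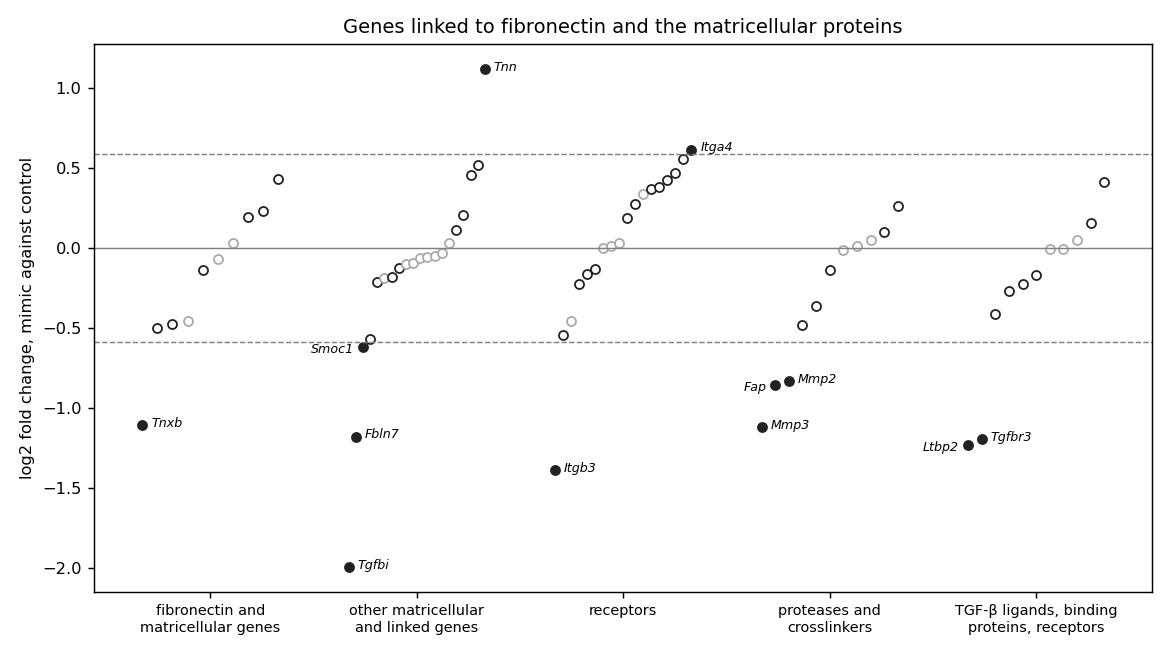
Log2 fold change, mimic against control, of each tested gene in the 10 fibronectin and matricellular genes and in 4 linked lists, ordered within a list, with dashed lines at the 1.5-fold cutoff. Filled points passed both cutoffs and are named, black open points passed adjusted p alone and grey points did not pass. Named points below the lower line number 1, 3, 1, 3 and 2 from left to right.

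Some marker lists of the cell types that such cultures could hold moved with the groups too. Preadipocyte and fibroblast markers come from cells that make much of the connective tissue matrix. They summed to 2876 to 2886 CPM in the control samples and 2357 to 2498 CPM with the mimic. Of 9 tested, 7 were lower (5 at both cutoffs) and 1 higher. Fap, 1 of those 5, is also the protease called lower above. Adipocyte markers went from 7336 to 7691 CPM down to 4979 to 5631 CPM, with 7 of 10 lower and 1 higher. Much of that sum was Fabp4, which fell from 3316 ± 132.1 to 2067 ± 118.5 CPM. Smooth muscle and myofibroblast markers went from 3726 to 3919 CPM up to 4472 to 4867 CPM. Of 6 such genes, 4 were higher and the other 2 passed in neither direction. Acta2 made up most of that sum and rose from 2364 ± 68.73 to 2891 ± 121 CPM. Of the 5 mesothelial genes, Krt19, a keratin, made up nearly the whole sum and rose from 22.8 ± 0.595 to 39.7 ± 5.84 CPM, while the other 4 together stood at 0.982 to 1.34 CPM in control and 0.797 to 1.10 CPM with the mimic. Macrophage markers overlapped between the groups (14.9 to 15.9 and 12.5 to 16.1 CPM), and of 4 tested Lyz2 alone passed, lower with the mimic. Of the 8 endothelial genes, Tek, an angiopoietin receptor, fell from 6.05 ± 0.608 to 2.43 ± 0.247 CPM, while the other 7 together overlapped between the groups (3.26 to 3.33 and 3.11 to 4.22 CPM). The part of these shifts in the changes of Fn1, Tnxb, Thbs2, Tnc and Thbs1 was not tested.

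The genes whose levels over the 6 samples were most like those of Tnxb, by Pearson's r of log2(CPM + 0.1) among 9114 genes with a mean of at least 10 CPM, were Msra (0.99998), Cygb (0.99983) and Rab34 (0.99964). Msra encodes a methionine sulfoxide reductase, Cygb cytoglobin and Rab34 a small GTPase. Msra fell from 29.0 to 8.03 CPM, Cygb from 281.5 to 143.0 CPM and Rab34 from 148.6 to 59.7 CPM. With 2 tight groups of 3 samples, such values mostly reflect the difference between the groups, and 1141 of the 9114 genes exceeded 0.95.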

How the data were processed

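RNA-Seq of 6 samples, 3 per group, was used. For each sample the authors deposited a list of unnormalized counts of reads for 22609 gene symbols. Its 5 tally lines were left out, among them reads outside genes (12.73% to 13.02% of uniquely aligned reads) and reads ambiguous between genes (0.652% to 0.667%). The tally line for alignments that were not unique stood at 19363264 to 21673840 per sample. The submitters' processing notes name bcl2fastq, TopHat2, HTSeq and the mouse build mm9, with no versions or settings. The labels describe stranded poly(A) libraries. Reads shared by overlapping genes or by near-identical copies can be missing from such counts.

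Counts were used as deposited in R 4.3.3 with edgeR 4.0.16 (glmQLFit and glmQLFTest without a block, TMM factors, filterByExpr at a minimum count of 10), two-sided, with Benjamini-Hochberg adjustment over 13117 genes. The standard error is the log2 fold change over the square root of F, and 95% intervals use the t quantile of the fit. "Rose" and "fell" mean an adjusted p under 0.05, and "called" means 1.5-fold in addition, the study's cutoffs. The study's text names no count test for these data. Alternatives were DESeq2 1.42.0, limma 3.58.1 (voom), other size factors, other filters, glmTreat, no fold cutoff, the replicate number as a block, and leaving out each sample. Replicate pairs differed by more than sampling noise (chi-square per degree of freedom 2.12 to 7.18).

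The 10 genes and the lists were chosen with earlier results of these data known. All 10 are named, from each list the called genes up to 4 per direction by smallest p, and the 3 genes most like the one with the largest change. Genes given outside this rule are marked as such, except single cell type markers such as Csf1r, Cd68, Lyz2, Cd14, Fabp4, Acta2, Krt19 and Tek. Those were also given outside it. One gene of the protease list was taken out of that list and is not reported here. Older symbols were used for Ccn genes. Symbols of 12960 tested genes were matched to GENCODE M21 on GRCm38, and 12501 had a 3′-UTR. Because the counts rest on mm9, GRCm38 positions were used for sequences, lengths and exon overlaps only. Whether the annotation used for counting holds the overlapping genes named above was not tested. Genes of like 3′-UTR length lie within 0.8 to 1.25 times its length. Python 3.11.15, pandas 2.3.3 and matplotlib 3.10.9 made tables and figures.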

Additional observations from a re-analysis of the deposited data

How the results depend on the processing

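Genes called numbered 977, and 6124 with no fold cutoff or 298 when edgeR's glmTreat tested against a 1.5-fold change. Of the 10 fibronectin and matricellular genes, 0 were called higher and 1 lower by edgeR, by DESeq2 and by limma-voom, and with no fold cutoff 3 and 4. Those 3 higher and 4 lower by adjusted p became 0 and 1 under glmTreat, which asks for a larger change by its construction. Leaving out 1 sample at a time gave 902 to 1011 called genes, with 0 members called higher and 1 called lower each time, and 3 higher and 4 to 5 lower by adjusted p. Tnxb was called in all 14 refits with another tool, scaling, filter, block or set of samples (log2 fold change -1.12 to -1.07), and Fn1 (-0.50 to -0.44) and Thbs2 (-0.52 to -0.48) were below 1.5-fold in all 14. Of the 10 genes, Postn alone changed its side of adjusted p in any of these refits. Same-numbered samples did not deviate together (correlations -0.185 to -0.044), and 925 genes were called in the fit that took the replicate as a block, in which 1 protease or crosslinker rather than 2 was higher by adjusted p. The refits by adjusted p alone, those of the list genes, the marker sums without Tek or Krt19 and the refit with library sizes computed without the 4 highest members were chosen after seeing the data. No result reversed. At 15 to 23 reads per sample the interval of Thbs4 ran from -1.01 to 0.09, so that its direction could not be resolved at this depth.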
